A study of Mus musculus with 5 samples.

Results

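MHC class I molecules and their transactivator Nlrc5 were examined in mouse melanomas treated with anti-PD-1, with or without the MDM2 inhibitor RG7112. The set was 10 genes chosen by name: the classical heavy chains H2-K1 and H2-D1, the non-classical heavy chains H2-Q4, H2-Q6, H2-Q7, H2-T22, H2-T23 and H2-M3, the light chain B2m, and Nlrc5. A gene was read from the probe set that the platform annotation pairs with its symbol, and 7 of the 10 had one, out of 19505 genes named on the array. No probe was paired with H2-Q6, H2-Q7 or Nlrc5 by symbol, Entrez identifier or RefSeq accession, so those 3 genes were not analysed here, and every statement about class I genes concerns the other 7.

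The tumours were subcutaneous B16.F10 melanomas, a transplantable line (luc+GFP+, with luciferase and GFP reporters), grown in wild-type C57BL/6 mice aged 10 weeks. Anti-PD-1, which blocks an inhibitory receptor of T cells, was given to all 5 mice by intraperitoneal injection on days 1, 4 and 8. Oral dosing every 2 days for 6 days was with RG7112, which blocks the binding of MDM2 to p53, in 3 mice (replicates 1, 2 and 3) and with corn oil and 5% DMSO in the other 2 (replicates 3 and 4). Tumours were removed on day 13 and each was hybridised to its own Affymetrix Clariom S array, so the replicates are separate animals of 1 cell line. Both groups carried anti-PD-1, and no tumour without it was compared. The material was whole tumour, described as melanoma cells mixed with infiltrating immune cells.

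Class I molecules display peptides from inside the cell to CD8 T cells. A heavy chain folds with B2m and a peptide delivered by the TAP transporter; H2-K1 and H2-D1 present diverse peptides, whereas the non-classical chains have narrower tasks. Nlrc5 drives their transcription together with RFX, CREB/ATF and NF-Y factors bound at class I promoters, and interferons raise it and the heavy chains through an interferon-stimulated response element. B16 melanoma is known for low class I display that interferon gamma can restore.

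The promoters of the 7 measured genes are shown because class I genes are known to be controlled through elements in this stretch, and they can be searched for letters of those elements. Each is the 220 bases before the annotated start, 5′ to 3′ on the gene's strand, from RefSeq on GRCm38.p6. Capitals mark letters of an interferon element, of the CRE-like core TGACG or of a CCAAT box on either strand.
H2-K1 (chr17:34000348-34000567, - strand): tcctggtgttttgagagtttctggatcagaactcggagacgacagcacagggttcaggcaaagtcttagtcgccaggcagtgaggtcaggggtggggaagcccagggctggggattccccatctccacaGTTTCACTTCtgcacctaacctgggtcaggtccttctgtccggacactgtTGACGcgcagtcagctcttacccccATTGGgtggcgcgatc
H2-D1 (chr17:35262874-35263093, + strand): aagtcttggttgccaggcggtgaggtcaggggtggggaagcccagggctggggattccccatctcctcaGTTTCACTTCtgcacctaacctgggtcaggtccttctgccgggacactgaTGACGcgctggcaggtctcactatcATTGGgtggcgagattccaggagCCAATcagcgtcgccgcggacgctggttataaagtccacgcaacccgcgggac
B2m (chr2:122147467-122147686, + strand): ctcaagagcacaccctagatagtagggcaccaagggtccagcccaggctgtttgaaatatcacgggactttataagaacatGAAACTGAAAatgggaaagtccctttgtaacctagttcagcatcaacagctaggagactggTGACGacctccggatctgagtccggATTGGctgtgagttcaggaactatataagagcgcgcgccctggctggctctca
H2-Q4 (chr17:35379397-35379616, + strand): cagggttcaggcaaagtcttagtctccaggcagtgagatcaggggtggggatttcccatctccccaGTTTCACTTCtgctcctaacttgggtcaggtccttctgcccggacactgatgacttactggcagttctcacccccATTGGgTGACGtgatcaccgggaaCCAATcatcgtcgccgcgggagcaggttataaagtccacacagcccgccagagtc
H2-T22 (chr17:36042743-36042962, - strand): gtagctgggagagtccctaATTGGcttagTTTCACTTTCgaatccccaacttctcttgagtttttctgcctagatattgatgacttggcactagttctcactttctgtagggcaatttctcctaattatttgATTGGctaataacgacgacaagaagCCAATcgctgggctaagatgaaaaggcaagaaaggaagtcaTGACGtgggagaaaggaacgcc
H2-T23 (chr17:36032702-36032921, - strand): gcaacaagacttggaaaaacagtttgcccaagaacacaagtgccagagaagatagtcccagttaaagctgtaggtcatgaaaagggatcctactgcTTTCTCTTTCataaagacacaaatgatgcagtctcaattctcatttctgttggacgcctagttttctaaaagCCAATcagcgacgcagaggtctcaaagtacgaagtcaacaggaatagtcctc
H2-M3 (chr17:37270014-37270233, + strand): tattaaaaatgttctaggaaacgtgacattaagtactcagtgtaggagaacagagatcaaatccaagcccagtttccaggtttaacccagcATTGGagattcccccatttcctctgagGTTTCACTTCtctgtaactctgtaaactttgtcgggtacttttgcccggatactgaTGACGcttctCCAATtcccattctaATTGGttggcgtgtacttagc
The heavy-chain genes lie on chromosome 17 and B2m on chromosome 2. The classical interferon letters, GAAA and GAAA separated by 2 bases of any kind on either strand, occurred in the windows of B2m, H2-T22 and H2-T23. H2-K1, H2-D1, H2-Q4 and H2-M3 instead held GAA, 1 base of any kind and TGAAAC, a form searched for after the first letters were seen not to match there. In the table's 32851 windows of 300 bases (250 before to 50 after the start), 3.44% held the first form and 0.405% the second. The first form, set beforehand, was in 3 of the 7 genes. The windows of all 7 held one or the other, against 3.78% of windows. Because the second form was picked from these same windows, the count of 7 is no evidence of enrichment. CCAAT was found in 7 of 7 (37.4% of all windows) and TGACG in 6 of 7 (20.8%), H2-T23 being without it. The gamma-activated letters TTCNNNGAA were in H2-M3 alone among the 7 (8.30% of windows). Matches to loose NF-kB-like letters, GGG and CC separated by 5 bases, in 6 of 7 (not H2-T23), were also present in 50.8% of windows. RefSeq gives 2 starts for H2-K1, and the first in the table was used. These are matches of letters, and no binding was measured.

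**Figure D1:**
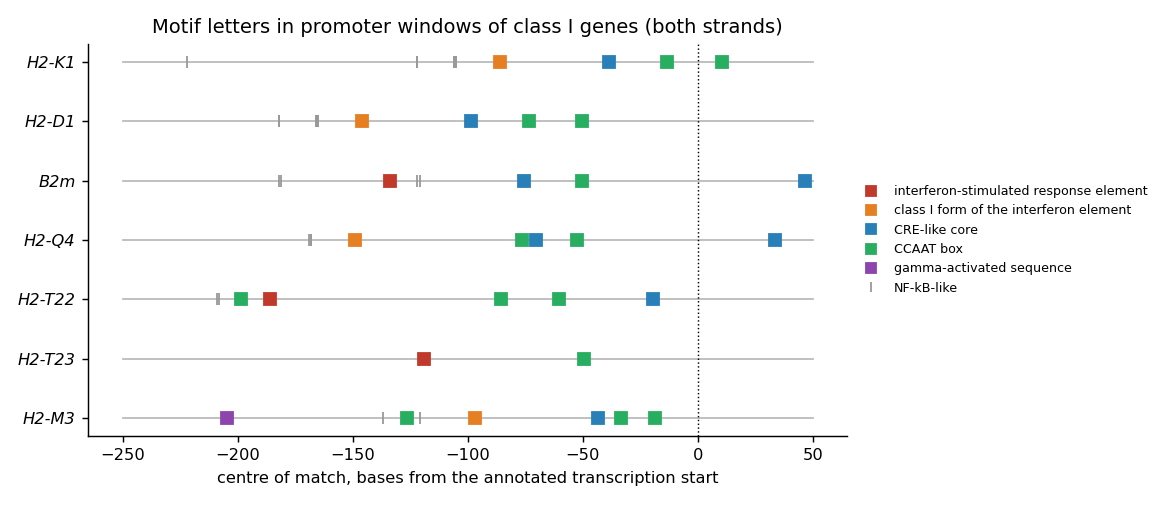
Map of motif letters in the promoter windows of 7 class I genes; the horizontal axis is the centre of each match in bases from the annotated transcription start (dotted line), and each row is a gene. Each gene has 1 interferon element upstream of its CCAAT boxes or between them, of the classical form in B2m, H2-T22 and H2-T23 and of the class I form in the other 4.

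In RG7112 tumours 3 of the 7 genes were called higher, the non-classical chains H2-T22, H2-T23 and H2-Q4, by 1.09 to 1.41 on the log2 scale. The classical chains H2-K1 and H2-D1, the light chain B2m and the non-classical H2-M3 had higher means by 0.63 to 0.86 but did not pass. H2-K1 missed narrowly (limma adjusted p = 0.0549). The calls did not divide classical from non-classical chains, as H2-M3 (0.64) differed less than H2-K1 (0.86) and H2-D1 (0.74). A gene was called at an adjusted p under 0.05 in limma, fitted on all 22203 probes with Benjamini-Hochberg adjustment over all of them; by this rule 1.42% of all probes were higher and 0.0315% lower. In all 7 genes every RG7112 tumour lay above both vehicle tumours, which 10.8% of all probes did. The median difference of the 7 was 0.86, against -0.03 over all probes (quartiles -0.16 and 0.11). Values are log2 signals, so a difference of 1 is a doubling, and a signal is compared only with the same gene's in another tumour.

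**Figure D2:**
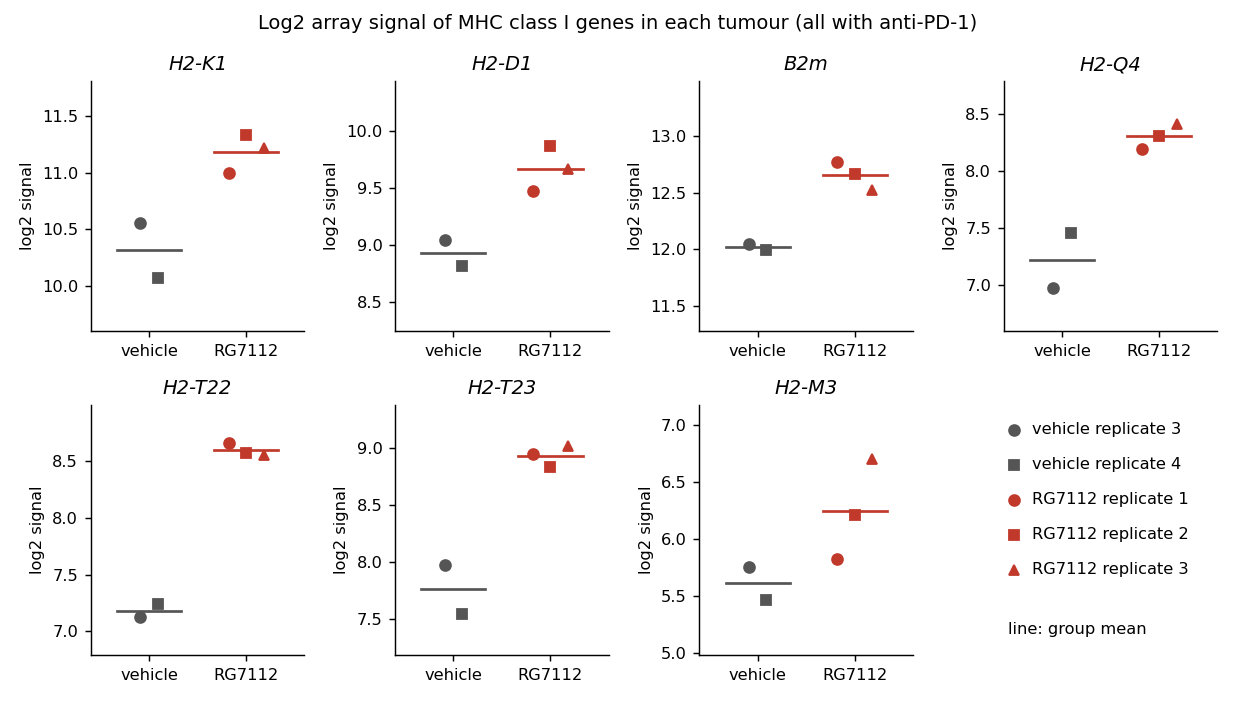
Log2 signal of each measured class I gene in each tumour; every panel spans the same 2.2 log2 units, points are tumours and lines are group means. In each panel the 3 RG7112 tumours lie above the 2 vehicle tumours, with the widest gap for H2-T22 and the narrowest for H2-M3.

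H2-T22 encodes a non-classical chain that is known as a ligand of some gamma-delta T cells rather than for presenting peptides. Its log2 signal (probe TC1700002822.mm.2) was 7.13 and 7.24 in the vehicle tumours and 8.66, 8.57 and 8.55 in RG7112 replicates 1, 2 and 3. The tumours of each group lay close together, within 0.11 of each other, and the groups were 1.31 apart at their nearest points. The change was 1.41 ± 0.15 (SE, limma adjusted p = 0.00083), or 2.66-fold. It was called whichever tumour was left out, with adjusted p from 0.00247 to 0.0333.

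H2-T23 encodes Qa-1, which displays a peptide cut from the leader sequences of other class I chains to the CD94/NKG2A receptor of NK and CD8 T cells. Its signal (TC1700002819.mm.2) was 7.97 in vehicle replicate 3 and 7.54 in vehicle replicate 4, and 8.94, 8.83 and 9.02 in the RG7112 tumours. The vehicle tumours differed from each other by 0.43 and the RG7112 tumours by 0.19, and the groups did not overlap. The change was 1.17 ± 0.18 (SE, limma adjusted p = 0.00606), or 2.25-fold. Without vehicle replicate 4 it was 0.96 and the call was lost (adjusted p = 0.158); without any other single tumour adjusted p ran from 0.0158 to 0.0308.

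H2-Q4 is a heavy chain of the Q region. It was measured at 6.97 and 7.46 in vehicle replicates 3 and 4 (TC1700000684.mm.2), and at 8.19, 8.31 and 8.41 in RG7112 replicates 1, 2 and 3. Here vehicle replicate 4 was the higher of the vehicle tumours, the reverse of H2-T23. The change was 1.09 ± 0.18 (SE, limma adjusted p = 0.0113), or 2.13-fold. The call was lost without vehicle replicate 3 (0.85, adjusted p = 0.228), vehicle replicate 4 (1.34, adjusted p = 0.0506) or RG7112 replicate 3 (1.04, adjusted p = 0.0547).

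H2-M3, which presents peptides that begin with N-formylmethionine, as bacterial and mitochondrial ones do, varied most among RG7112 tumours of the 7 genes. The vehicle tumours gave 5.76 and 5.46 (TC1700000765.mm.2) and the RG7112 tumours 5.83, 6.21 and 6.70. RG7112 replicate 1 was only 0.07 above the higher vehicle tumour, while RG7112 replicate 3 was the highest. The difference was 0.64 ± 0.23 (SE, 95% interval 0.12 to 1.15, limma adjusted p = 0.396), and 0.41 without RG7112 replicate 3.

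H2-K1 and H2-D1 encode the classical K and D chains, the main presenters to CD8 T cells. H2-K1 (TC1700001892.mm.2) was at 10.56 and 10.08 in vehicle replicates 3 and 4 and at 10.995, 11.33 and 11.22 in the RG7112 tumours. Vehicle replicate 4 was the lowest tumour and RG7112 replicate 2 the highest. The difference was 0.86 ± 0.19 (SE, 95% interval 0.45 to 1.28), and its adjusted p of 0.0549 in limma lay just above the threshold. H2-D1 (TC1700002790.mm.2) was at 9.04 and 8.81 with vehicle and at 9.47, 9.87 and 9.67 with RG7112, with the same tumours lowest and highest. Its difference was 0.74 ± 0.17 (SE, 95% interval 0.36 to 1.13, limma adjusted p = 0.0792).

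B2m, the light chain that every class I heavy chain here pairs with, had a difference like that of H2-M3 (0.63 against 0.64), on signals near the upper end of the deposited values, which ran to 13.33. It was at 12.05 and 11.995 in the vehicle tumours (TC0200001838.mm.2) and at 12.77, 12.67 and 12.52 in RG7112 replicates 1, 2 and 3. The vehicle tumours were 0.05 apart and the RG7112 tumours spanned 0.24, and the groups were 0.48 apart. The difference was 0.63 ± 0.16 (SE, 95% interval 0.29 to 0.98), or 1.55-fold, with a limma adjusted p of 0.106.

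**Figure D3:**
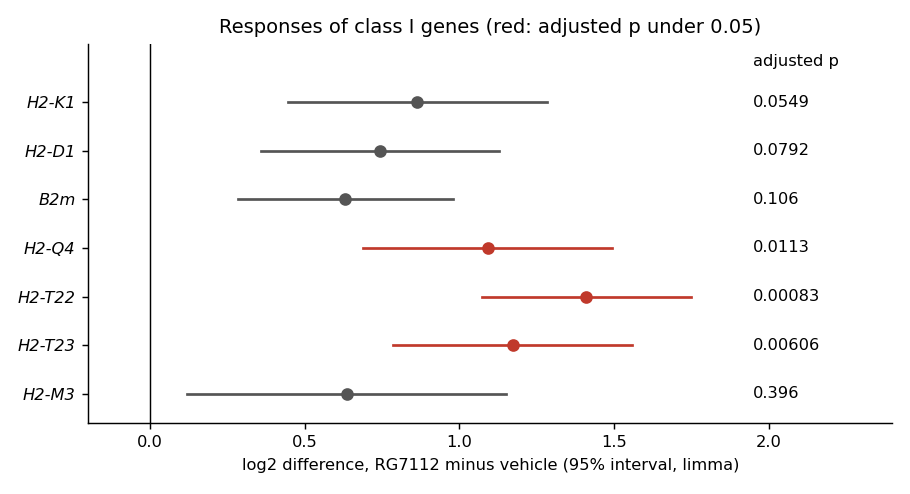
Log2 difference of RG7112 minus vehicle for the 7 measured class I genes, with 95% intervals from limma and the p-value adjusted over all probes. The intervals lie above 0 for all 7 and run from 1.07 to 1.75 for H2-T22 and from 0.12 to 1.15 for H2-M3; red marks the 3 genes that passed.

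RG7112 replicate 1 was the highest tumour in 2 of the 7 genes, replicate 2 in 2 and replicate 3 in 3. Vehicle replicate 4 was the lowest tumour in 5 genes and vehicle replicate 3 in 2, H2-Q4 and H2-T22. The calls of the classical chains and B2m differed between fits. With a prior variance that follows signal intensity, 6 of the 7 genes were called higher (1.58% of all probes), with adjusted p of 0.00409 for H2-K1, 0.0169 for H2-D1 and 0.00219 for B2m, and H2-M3 the exception. With array weights 5 were called (1.61% of all probes), H2-K1 at adjusted p = 0.0332 and H2-D1 at 0.0408, while B2m was not (0.0680). H2-K1 also passed, as the one added call, with arrays centred on their medians (adjusted p = 0.0398), without dim probes (0.0496), with 1 probe per named gene (0.0489) and without RG7112 replicate 1 (0.0489). At an adjusted p under 0.10 the default fit also called 5 (1.74% of all probes). Without vehicle replicate 4, 1 gene was called, H2-T22 (0.293% of all probes). Over the alternatives that kept both vehicle tumours, limma adjusted p ran from 0.00409 to 0.166 for H2-K1 and from 0.0169 to 0.214 for H2-D1. For B2m it ran from 0.00219 to 0.251. Without vehicle replicate 4 the differences were 0.62 for H2-K1, 0.63 for H2-D1 and 0.61 for B2m. The sign was positive throughout for all 7 genes, but only the 3 renormalizations could have reversed it, as the groups did not overlap.

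**Figure D4:**
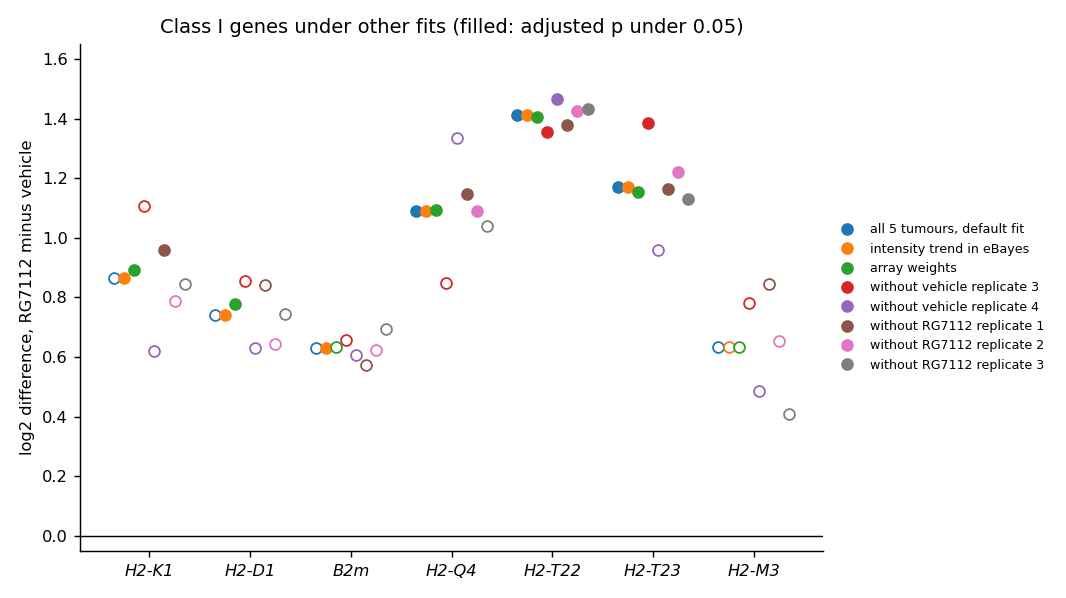
Log2 difference of RG7112 minus vehicle for each class I gene under 8 fits; colours are fits, filled points have an adjusted p under 0.05 and open points do not. H2-T22 is filled in all 8 and H2-M3 in none, and the classical chains and B2m are filled with the intensity trend.

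Whether the genes responded unequally was asked within each array, as the difference between a pair of genes compared between groups. Of 12 pairs laid out, 9 could be computed, and 10 splits of the tumours allow no exact permutation p below 0.1. H2-T22 minus B2m was -4.92 and -4.76 with vehicle and -4.11, -4.10 and -3.97 with RG7112. The log ratio was thus higher in every RG7112 tumour, by 0.78 ± 0.08 (SE; two-sided exact permutation p = 0.1, the smallest possible, and 0.3 adjusted over 9 pairs). H2-T23 minus B2m differed in the same way by 0.54 ± 0.20, and H2-T22 minus H2-K1 by 0.55 ± 0.28, each with an exact permutation p of 0.1 (0.3 adjusted). Without vehicle replicate 4 the first of these was 0.35 and the second 0.85, and without vehicle replicate 3 the second was 0.25; H2-T22 minus B2m stayed between 0.70 and 0.86 without any 1 tumour. H2-K1 minus B2m differed by 0.23 ± 0.25 (exact permutation p = 0.5) and H2-D1 minus B2m by 0.11 ± 0.21 (exact permutation p = 0.6), with the groups overlapping. Between the classical chains, H2-K1 minus H2-D1 differed by 0.12 ± 0.10 (exact permutation p = 0.2). The other 3 pairs (H2-T22 minus H2-T23, H2-Q4 minus H2-K1 and H2-M3 minus H2-K1) differed by -0.23 to 0.24, with exact permutation p from 0.4 to 0.8. Class I genes are similar in sequence, and whether a probe set also bound transcripts of a relative was not tested.

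Of 31 other class I and class I-like genes listed, 25 were measured, with a median difference of 0.03. Among the 25, 1 was called higher, against 1.42% of all probes, and 0 lower. In 6 of the 25 every RG7112 tumour lay above both vehicle tumours, which 10.8% of all probes did. H2-Q5, a Q-region gene outside that list, was also called higher (0.78, adjusted p = 0.0427), but not without either vehicle tumour (0.291 and 0.404), RG7112 replicate 2 (0.126) or RG7112 replicate 3 (0.128), nor after quantile (0.0832) or cyclic loess normalization (0.0559). The listed gene called was H2-T10, a close relative of H2-T22 that RefSeq lists as a transcribed pseudogene, with 1.12 ± 0.20 (adjusted p = 0.0152); the call was lost without vehicle replicate 4 (0.80, adjusted p = 0.275), RG7112 replicate 2 or RG7112 replicate 3. H2-T24 (0.61 ± 0.17) and H2-Q2 (0.51 ± 0.16) had the next smallest p-values and did not pass, nor did Hfe, a class I-like regulator of iron uptake (0.37 ± 0.18).

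Genes that make and load class I peptides were measured for comparison. By the limma rule that called 1.42% of all probes higher and 0.0315% lower, 7 of 14 members were called higher and 0 lower. Their median difference was 0.82. Psmb8 and Psmb9, subunits of the immunoproteasome, rose by 1.98 ± 0.26 and 1.46 ± 0.23, the transporter subunit Tap1 by 1.55 ± 0.19, and Tapbpl, the peptide editor TAPBPR, by 0.93 ± 0.17. The count was 5 without RG7112 replicate 1 and 4 without RG7112 replicate 2 or 3. Over all probes the count fell too, from 315 to 268, 264 and 254 without RG7112 replicates 1, 2 and 3. Leaving out a vehicle tumour leaves 1 in that group. Without vehicle replicate 4 the differences were 1.73 for Psmb8, 1.04 for Psmb9, 1.25 for Tap1 and 1.04 for Tapbpl. Of 9 measured class II chains and loading genes 6 were called higher and 0 lower, with a median of 1.31. The count stayed at 6 without any 1 RG7112 tumour. H2-Eb1, H2-DMa, H2-Aa and H2-Ab1 rose by 1.80 to 2.16. Without vehicle replicate 4, H2-DMa differed by 1.94 and H2-Aa by 1.74. The class I and class II lists were not tested against each other.

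Factors that raise class I genes were compared as well. Irf1, an interferon-induced factor that binds these elements, had a mean of 8.53 ± 0.40 with vehicle (SD, n = 2) and of 9.74 ± 0.14 with RG7112 (SD, n = 3), and rose by 1.22 ± 0.20 (SE, limma adjusted p = 0.0089), and Stat2 rose by 0.89 ± 0.16 (adjusted p = 0.0181). Both calls were lost when vehicle replicate 4 was left out (adjusted p of 0.191 for Irf1 and 0.116 for Stat2), and that of Stat2 also in the absence of vehicle replicate 3, RG7112 replicate 1 or RG7112 replicate 3. Irf9 (0.65 ± 0.15) and Jak2 (0.47 ± 0.19) did not pass, and Ifng differed by 0.38 ± 0.28 on low signals of 3.92 to 5.18; without vehicle replicate 3 it was -0.013. Altogether, of 13 measured inducers 2 were called higher, against 1.42% of all probes, and the median difference was 0.15. In 6 of the 13 every RG7112 tumour lay above both vehicle tumours, which 10.8% of all probes did. Of 11 promoter factors that work with Nlrc5, the RFX, NF-Y and CREB/ATF proteins and their co-activators, 0 were called by limma, and 1 reached an unadjusted p under 0.05, Rfxap (-0.35 ± 0.15). Their median was 0.22, and the other differences ran up to 0.33 for Atf1. Among 6 relatives of Nlrc5, Nod1, a sensor of bacterial peptides, rose by 1.16 ± 0.18 (adjusted p = 0.00738; not called without vehicle replicate 3), and Ciita, the class II transactivator, differed by 0.95 ± 0.23 (adjusted p = 0.0863).

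Receptors that read class I molecules were called higher in 3 of 12 measured genes, against 1.42% of all probes. Klra2, a Ly49 receptor, had a mean of 4.41 ± 0.47 with vehicle (SD, n = 2) and of 6.43 ± 0.20 with RG7112 (SD, n = 3), and rose by 2.02 ± 0.21 (SE, limma adjusted p = 0.000722). Pirb, an inhibitory class I receptor of myeloid and B cells, rose by 0.98 ± 0.17, and the CD8 chain Cd8b1 by 0.90 ± 0.18; both calls were lost without either vehicle tumour, and that of Cd8b1 without any single tumour. Cd8a differed by 0.87 ± 0.25 and did not pass. Klrd1 and Klrc1, which form the receptor for the product of H2-T23, were at low signals of 3.20 to 4.12 and did not pass. Klrc1 differed by 0.59 ± 0.19 (limma adjusted p = 0.298), with every RG7112 tumour above both vehicle tumours. Klrd1 differed by 0.12 ± 0.18, with the groups overlapping.

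**Figure D5:**
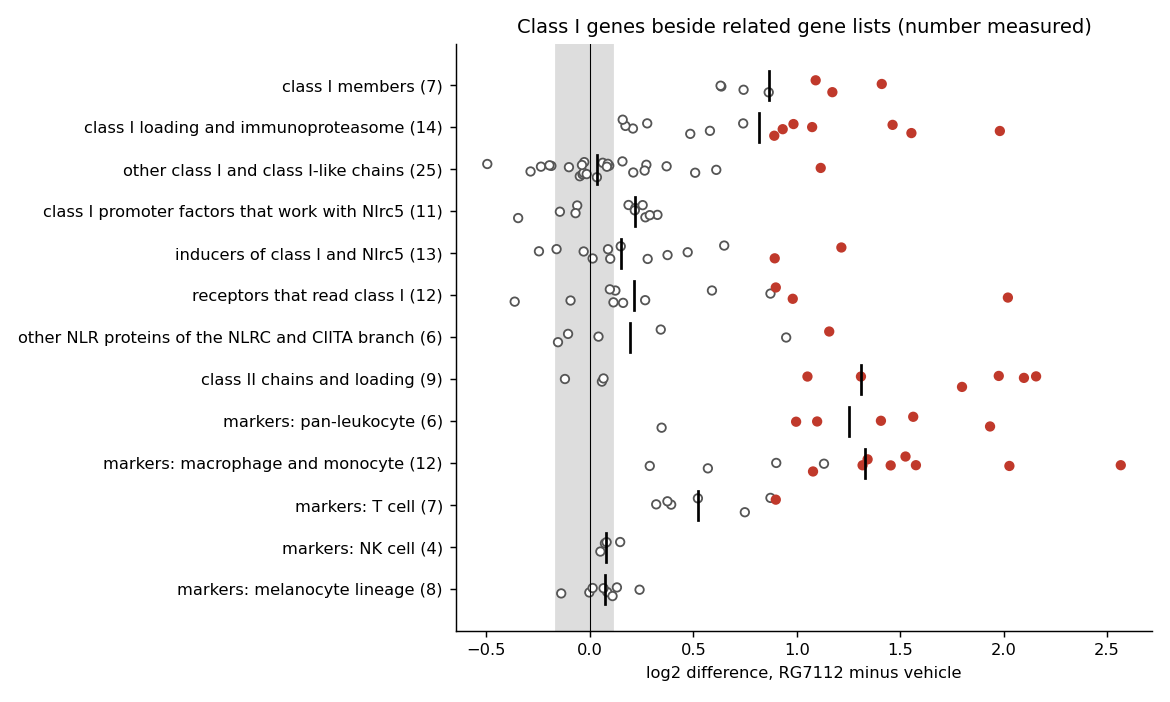
Log2 difference of RG7112 minus vehicle for every measured gene of each list (number in brackets); red points were called higher, open points were not called, black bars are list medians and the grey band holds the middle quartiles of all probes. The class I genes sit between 0.63 and 1.41 (median 0.86), the loading genes have a median of 0.82 and the class II genes one of 1.31, while the other class I-like genes have a median of 0.03.

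Most pan-leukocyte and macrophage markers were called higher in the same tumours. T cell and endothelial markers also had higher mean levels there, with 1 call in each list, and the remaining lists varied. Of 6 pan-leukocyte genes 5 were called higher, against 1.42% of all probes. The mean log2 levels of the 6 were 6.80 to 6.94 in vehicle and 8.04 to 8.16 in RG7112 tumours. Of 12 measured macrophage and monocyte markers 8 were called higher (6.13 to 6.43 against 7.39 to 7.80). T cell markers, 1 of 7 called, ran from 4.71 to 4.83 against 5.28 to 5.46. In 5 of the 7 every RG7112 tumour lay above both vehicle tumours (10.8% of all probes). Cd3e, Cd3g, Cd8a and Cd8b1 reached an unadjusted p under 0.05 in limma, and Cd3d, Cd2 and Cd4 did not. NK cell markers, 0 of 4 called in limma and 0 at an unadjusted p under 0.05, ran from 3.81 to 3.93 against 3.84 to 4.09. The melanocyte lineage genes, which define the labelled tumour and were present at high signal, were at 11.92 to 11.99 in vehicle and 11.996 to 12.04 in RG7112 tumours, with 0 of 8 called in limma and 0 at an unadjusted p under 0.05. Of 6 dendritic cell markers 1 was called higher (median 0.11). Of 4 measured B cell markers (median -0.15) and 4 measured neutrophil markers (median 0.04) limma called 0, with 0 and 1 at an unadjusted p under 0.05. All 5 endothelial markers had every RG7112 tumour above both vehicle tumours, which 10.8% of all probes did. Their levels were 6.04 to 6.23 against 6.69 to 6.85, with a median difference of 0.63. Of the 5, 1 was called higher, Kdr (1.01, limma adjusted p = 0.0203), a receptor for vascular endothelial growth factor. Of 5 measured fibroblast markers limma called 0, with 0 at an unadjusted p under 0.05 (median 0.17). The part of these leukocyte and endothelial levels in the class I differences was not tested, and in whole tumours a change in the number of cells of a type and a change in RNA per cell cannot be told apart.

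The genes most like the class I set were found by the root mean square distance over the 5 tumours between profiles centred on each gene's own mean. The mean class I profile ran -0.50 and -0.62 in vehicle replicates 3 and 4 and 0.27, 0.40 and 0.45 in RG7112 replicates 1, 2 and 3. Predicted genes and clone names were left out of the ranking. Of the other named genes, the nearest were Parp11, an ADP-ribosyltransferase (distance 0.06), Lcp1, the leukocyte actin bundler L-plastin (0.07), and Tgm2, a transglutaminase (0.08). Itgb2, the shared beta chain of leukocyte integrins, H2-Q5 and Tifab followed, each at 0.09. The median distance over 19505 genes was 0.50 and the 1st percentile 0.22. The class I genes themselves lay 0.14 to 0.27 from their mean. H2-T22 (0.26) and H2-M3 (0.27) were beyond that percentile, although they helped to form the mean. The distance is a description over 5 tumours and carries no test.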

How the data were processed

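Gene expression was measured in 5 tumours, 2 with vehicle and 3 with RG7112, all with anti-PD-1. The authors deposited log2 signals from Affymetrix Clariom S arrays; the oligo package and RMA are named in the submitters' processing notes, with versions and options not given in the sources used here. RNA had a quality number above 9, per the labels' protocols. All columns of per-sample values were used. Of 22203 probe sets, 19572 had 1 gene symbol, 0 several and 2631 none; the probe with the highest mean stood for a gene, and each measured class I gene had 1 probe.

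RG7112 minus vehicle was fitted with limma 3.58.1 in R 4.3.3 (lmFit, then eBayes with default settings) on all probes. The residual degrees of freedom were 3, to which the prior added 7.92, and the number of arrays limits the precision. The script was tested on simulated data. Genes were named by a rule: the class I genes, up to 4 genes with the smallest p in each of 7 pathway lists, Ifng, Irf1, Tap1, Psmb8, Ciita and Cd8a (a further gene of the rule is not reported here), and the 6 genes nearest in profile. Nod2, Nlrc4, Ep300 and Nfyc, also taken by the rule, did not pass; Klrd1, Klrc1 and Kdr were named after their values were seen. The genes and lists were chosen with earlier results of these data known. Alternatives were an intensity trend or robust eBayes, array weights, 3 renormalizations, a filter below the 40th percentile of probe means, other probe rules, other thresholds (adjusted p under 0.10, at least 1.5-fold) and leaving out each tumour. Likeness to Nlrc5 alone and protein comparisons were not run. No scan dates were used here, so batches of arrays were not examined.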

Additional observations from a re-analysis of the deposited data

How the results depend on the processing

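All 7 class I genes kept a positive difference under all 16 alternatives, but for most of these the sign was fixed in advance. Other variance models, filters, probe rules and thresholds left the sign as it was. Leaving out a tumour could not reverse it, as the groups did not overlap. Only the 3 renormalizations could have done so. H2-T22 kept its call in each alternative that kept both vehicle tumours. The number of class I genes called higher, 3 in the default fit, was 6 with an intensity trend, 5 with array weights, 5 at adjusted p under 0.10, 4 with arrays centred on their medians, without dim probes or with 1 probe per named gene, and 1 to 4 when a tumour was left out. Of 90 genes measured in the 7 pathway lists, 20 were called higher, and 6 to 16 without 1 tumour (11 without vehicle replicate 3 and 6 without vehicle replicate 4). Over all probes, 315 were called higher and 65 to 268 without 1 tumour (65 without vehicle replicate 4, 151 without vehicle replicate 3). Calls of lower probes, 7 in the default fit, were 16 with array weights, 4 with cyclic loess, 2 without dim probes, 29 at adjusted p under 0.10, and 0 to 5 without 1 tumour. Between pairs of class I genes, leaving out a tumour moved H2-K1 minus H2-D1 from 0.12 to between -0.0072 and 0.25, H2-T22 minus H2-T23 from 0.24 to between -0.032 and 0.51, and H2-Q4 minus H2-K1 from 0.23 to between -0.26 and 0.71, the extremes being the fits without 1 of the vehicle tumours. H2-K1 minus B2m ran from 0.016 to 0.45, H2-D1 minus B2m from 0.018 to 0.27 and H2-M3 minus H2-K1 from -0.44 to -0.11. Ifng, 0.38 in the default fit, reversed without vehicle replicate 3 and ran from -0.013 to 0.76 when a tumour was left out. With vehicle down to 1 tumour, its spread is assumed to be that of the RG7112 tumours; the other causes were not tested. Pairs with Nlrc5 and with H2-Q6 and H2-Q7 could not be computed. No paired analysis was run, because the labels name no pairs of animals across the groups, which share 1 replicate number.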
